A study of Mus musculus with 2 samples.

Results

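Integrins, laminins and the proteins that link them in the basement membrane were compared between 2 libraries of mouse early mesodermal cells. Members were defined by gene symbol, as the integrin alpha and beta chains other than Itga2b, the laminin alpha, beta and gamma chains, and Fn1, Nid1, Nid2, Hspg2, Agrn and Vtn. Of 16444 named genes on the array 44 were members, each with 1 probe, comprising 22 integrin chains, 9 laminin chains, 6 linkers or matrix ligands and 7 genes whose symbols begin like an integrin's but which encode no classical integrin chain. Genes of these families that carried no matching symbol, such as Lamb1 and Itgb8, were not analysed here.

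Both libraries came from mouse embryonic stem cells cocultured with OP9, a bone marrow stromal line that supports blood formation, and sorted for Flk-1, the receptor encoded by Kdr. The gene-trapped sample carries a gene trap, a cassette that interrupts a transcript, in each copy of AU019823. The revertant sample is described in the labels as close to wild type at that gene. Both are labelled day 4.5, with 4 days of coculture before the sort in the treatment protocol, RNA came from 350000 revertant and 300000 gene-trapped cells, and each group has 1 array. With no replicate there is no check on the spread between cultures and no test, so differences below are sizes only. The labels give each sample a code of its own (cl.4 for the revertant, cl.3 for the gene-trapped sample) without saying what it stands for, so an effect of the line cannot be told apart from that of the genotype.

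Integrins are surface receptors made of an alpha and a beta chain, and the alpha chain largely sets which matrix protein is bound. Laminins are trimers of an alpha, a beta and a gamma chain that polymerise into the sheet of a basement membrane. Nidogens, perlecan (Hspg2) and agrin (Agrn) tie that sheet to collagen IV and to cells, whereas fibronectin (Fn1) and vitronectin (Vtn) are ligands of integrins that recognise the RGD tripeptide. During gastrulation, nascent mesoderm leaves the basement membrane of the epiblast and migrates over a matrix rich in fibronectin.

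In the main setting, described next, no member differed by 2-fold or more between the libraries. In the authors' table of processed values 3 laminin chains were at least 2-fold lower, as were 4.02% of all genes. With the local background subtracted 1 member, Itgb1, was at least 2-fold higher, as were 2.04% of all genes. Signals are spot medians in the Cy5 channel, and differences are gene-trapped minus revertant on the log2 scale after normexp correction with offset 50 and quantile normalization. The background limit of an array is the mean of its blank spots plus 2 SD, and a gene counts as detected when its spot median is above the limit. Of the 44 members 39 were detected on both arrays. None of these passed 2-fold, with a count of 0 upward and 0 downward, where 0.334% of 13753 named genes passed it upward and 1.08% downward. The members' median difference was -0.01, next to 0.01 over all named genes, and single members ran from -0.84 for Lamb2 to 0.39 for Itgav. At a size of 0.5 or more, 2 members were lower (5.13%) and 0 higher, against 4.58% and 3.63% of all named genes. The members' counts were thus near those of the genes at large, but the offset of 50 narrows differences of dim genes by construction. Itga10, not above background on either array, had a log2 signal of 5.69 on both. A dim member such as Lamb3, with 5.91 in revertant cells, could therefore not pass 2-fold downward. The same limit holds for dim genes of the lists below.

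The gene-trapped array was dimmer as a whole. The median probe read 47.5 for revertant and 38.6 for gene-trapped cells, and 89.0% of named genes had a lower unnormalized signal on the latter. Among members 42 of 44 did, the exceptions being Itgav and Fn1. The background limits were 25.0 and 22.3 in the same order. On 2 kinds of positive control, with 24 spots each, the SD of the log2 ratio between arrays was 0.107 and 0.0988, a spread between spots and not between cultures. The sorted cells had signal for all 9 early mesoderm markers on both arrays, with a median difference of 0.20. Their summed normalized signal went from 3291 in the revertant to 4882. Etv2 (log2 signal 9.60 to 10.91) and Mixl1 (7.58 to 9.57) added most to that sum, and 5 markers had positive and 4 negative differences. Of the 9 markers 2 passed 2-fold upward, Mixl1 with 1.99 and Etv2 with 1.30, and 0 downward. Over all named genes 0.334% passed it upward and 1.08% downward. By the authors' values 3 of 9 passed it upward and 0 downward. Of all genes with both values 2.01% did so upward and 4.02% downward. The gene of the sorted receptor, Kdr, read 1025 and 537 and had a log2 difference of -0.65, or -2.04 with the local background subtracted.

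**Figure D1:**
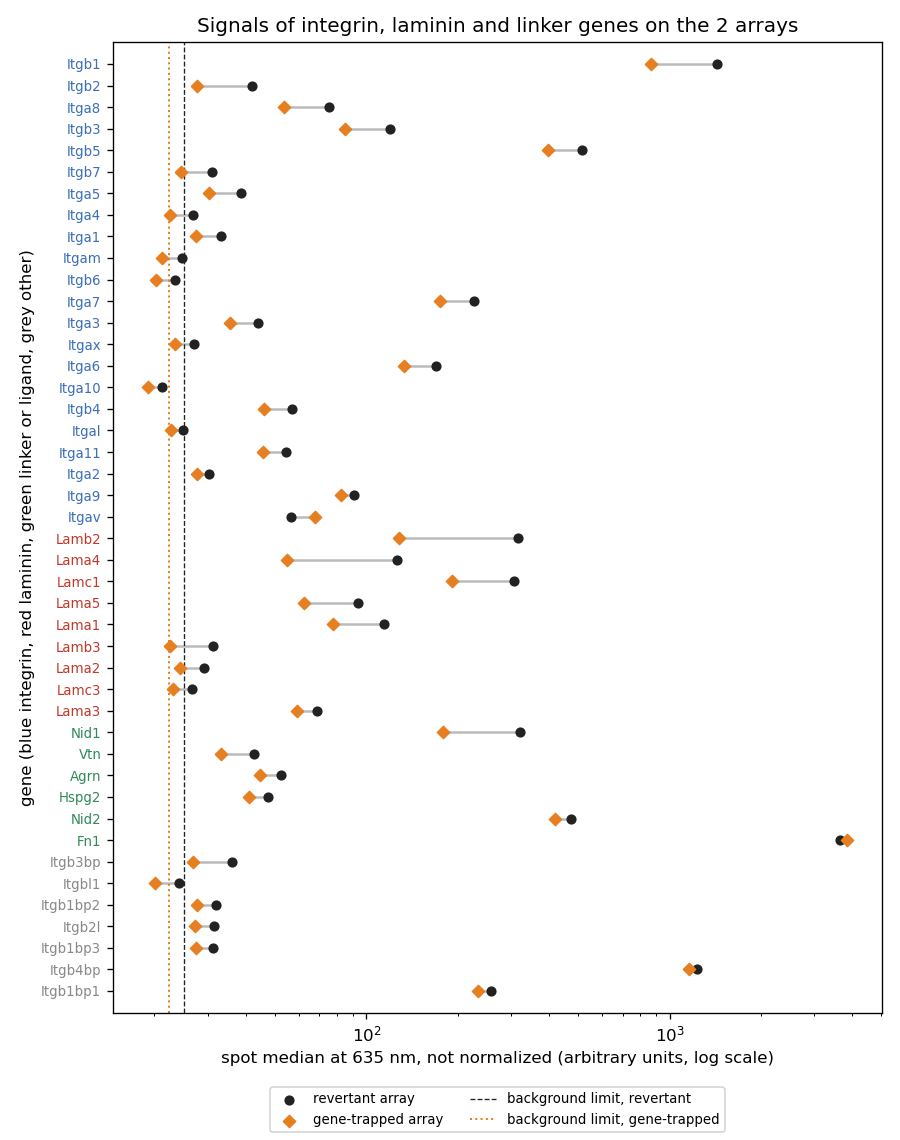
Unnormalized spot medians of the 44 members (horizontal log axis, arbitrary units), 1 point per array, ordered within each family by their normalized difference, with vertical lines at the background limits of 25.0 (revertant) and 22.3 (gene-trapped). The gene-trapped point lies left of the revertant point for 42 genes, and Itgav and Fn1 are the exceptions.

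RefSeq promoter windows are shown for 4 members. In the main setting Lamb2, Nid1 and Itgb1 had lower signals in gene-trapped cells and Itgav a higher one, but Itgb1 had 1.18 with the local background subtracted. Lama4, lower than Nid1 and Itgb1, had no window to show. Each window is the 250 bases before the annotated start of the gene, 5' to 3', in build GRCm38.p6. Capitals mark matches to 5 short motifs, searched on both strands: the GC box (GGGCGG), the CCAAT box (CCAAT), the TATA box (TATAAA), the core of the hypoxia response element (ACGTG) and the AP-1 site (TGANTCA).
Lamb2 promoter (chr9:108479612-108479861, + strand): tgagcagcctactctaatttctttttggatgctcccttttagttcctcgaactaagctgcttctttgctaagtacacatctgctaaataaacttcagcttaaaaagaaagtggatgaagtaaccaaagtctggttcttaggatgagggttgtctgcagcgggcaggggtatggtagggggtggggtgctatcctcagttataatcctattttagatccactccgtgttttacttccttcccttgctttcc
Nid1 promoter (chr13:13437352-13437601, + strand): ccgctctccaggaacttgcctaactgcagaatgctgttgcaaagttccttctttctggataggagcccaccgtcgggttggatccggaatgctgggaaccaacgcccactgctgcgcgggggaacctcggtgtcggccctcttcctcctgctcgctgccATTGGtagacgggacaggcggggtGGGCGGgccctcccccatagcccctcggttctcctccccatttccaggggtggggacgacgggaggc
Itgb1 promoter (chr8:128685404-128685653, + strand): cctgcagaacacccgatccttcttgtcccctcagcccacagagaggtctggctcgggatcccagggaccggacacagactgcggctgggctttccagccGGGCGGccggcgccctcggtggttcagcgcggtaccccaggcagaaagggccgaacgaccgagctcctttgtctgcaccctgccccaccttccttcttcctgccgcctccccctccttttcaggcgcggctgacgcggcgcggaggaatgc
Itgav promoter (chr2:83724147-83724396, + strand): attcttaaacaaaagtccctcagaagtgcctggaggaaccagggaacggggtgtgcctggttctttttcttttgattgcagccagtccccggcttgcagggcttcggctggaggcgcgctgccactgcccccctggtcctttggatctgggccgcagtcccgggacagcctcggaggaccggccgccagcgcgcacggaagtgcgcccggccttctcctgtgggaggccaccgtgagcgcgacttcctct

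The windows of Lamb2 and Itgav held no match to any of the 5 motifs. Nid1 had a GC box that began 67 bases before the start and a CCAAT box on the opposite strand at 91 bases, and Itgb1 had a GC box at 151 bases. These matches did not overlap. The GC content was 43.6% for Lamb2, 64.4% for Nid1, 68.0% for Itgb1 and 64.4% for Itgav, with a median of 52.4% over all 32851 windows of the table. A GC box was present in 32.7% of all windows, a CCAAT box in 33.8%, a TATA box in 12.4%, the hypoxia core in 16.6% and the AP-1 site in 6.75%. Of the 44 members 29 were matched in the table, with 33 windows. Among these windows 14 held a GC box, 4 a CCAAT box, 2 a TATA box, 2 the hypoxia core and 1 the AP-1 site. A match is a run of letters and not a shown binding site.

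Laminin chains had mostly lower signals in gene-trapped cells. All 9 were detected on both arrays, and their median difference was -0.15. In the main setting 8 were below 0, as were 46.6% of all named genes, but Lama2 (-0.02) and Lamc3 (-0.01) only just. With median scaling 6 were below 0 and with 75th percentile scaling 5, where the median of all genes was 0.01 and 0.15. In bulk RNA, fewer cells of a type and less RNA per cell cannot be told apart. Lamb2 encodes the beta 2 chain of basement membranes such as those of muscle, kidney and vessels. Its spot read 316 in revertant and 128 in gene-trapped cells, and its log2 signal went from 8.30 to 7.46, a difference of -0.84 or 1.79-fold lower. Among the 1000 genes nearest to it in signal 3.7% had a lower difference. Lama4, the alpha 4 chain found in endothelial and mesenchymal basement membranes, read 126 and 54.7, and its difference was -0.61 (1.52-fold lower). Among its nearest 1000 genes 2.4% were lower. Both were thus low members of their signal class, short of 2-fold.

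Lamc1 encodes the gamma 1 chain, which is shared by most laminin trimers and carries the nidogen binding site. It read 306 in revertant and 192 in gene-trapped cells. Its difference was -0.30, which came to 0.00 with the local background subtracted. Lama5, the alpha 5 chain of many embryonic and adult membranes, read 93.7 and 62.2 with a difference of -0.17. Lama1, the alpha 1 chain of the earliest embryonic basement membranes, read 115 and 77.5 with a difference of -0.15. Neither was near 2-fold, and no spread between cultures is known for them. Of the nearest 1000 genes 18.7% were lower for Lamc1, 19.9% for Lama5 and 23.9% for Lama1. In a trimer of alpha 4, beta 2 and gamma 1, the 3 chain genes had -0.61, -0.84 and -0.30, and in the trimer with alpha 5 in place of alpha 4 the alpha chain had -0.17. Lama3, an epithelial chain, had a positive difference, 0.08 from 68.7 and 58.9, and -0.12 with the local background subtracted.

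Lamb3, Lama2 and Lamc3 lay close to the background limits. Lamb3, the beta chain of an epithelial laminin, read 31.1 in revertant and 22.5 in gene-trapped cells, where the limit was 22.3. Its difference of -0.12 was low for its signal class, with 1.0% of its nearest 1000 genes lower. Lama2 read 29.1 and 24.3 and Lamc3 26.6 and 22.9, with differences of -0.02 and -0.01. Scaling to the 75th percentile gave Lamb3 0.11, Lama2 0.20 and Lamc3 0.23, where the median of all genes moved to 0.15. Relative to that median, Lamb3 stayed lower and Lama2 and Lamc3 were higher. Under either this or median scaling 6 of 9 laminin chains lay below the all-gene median.

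In the authors' table of processed values, 3 laminin chains passed 2-fold downward and 0 members upward. The table gave values in both columns for 40 members. Over all genes with both values, 4.02% did so downward and 2.01% upward. Lama4 was 2.31-fold lower, Lamb2 2.10-fold and Lamb3 2.73-fold, and the median of the 9 laminin chains was -0.35. Lamb3 stood at 5.70 and 2.09 in that table, whose columns have a median of 25, so its fold rests on values near the bottom of the scale. For Lamb3 the log2 ratio was -1.45 in that table, -0.26 without background correction or offset and -0.12 in the main setting. Why the fold was wider in that table was not tested.

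Several markers of endothelium and stroma also had lower signals in gene-trapped cells. Endothelium and mesenchyme make Lama4 and Lamb2, so their markers are given here. Of 7 endothelial markers measured 6 were detected on both arrays, and the summed normalized signal was 1991 and 858. Of the 6, 3 passed 2-fold downward (Flt1, Tek and Pecam1) and 0 upward. Over all named genes 1.08% passed it downward and 0.334% upward. By the authors' values 6 of 7 endothelial markers passed it downward. Of all genes with both values 4.02% did so downward and 2.01% upward. Cdh5 was above background on the revertant array only. Of 12 stromal markers 11 were detected on both arrays, 3 passed 2-fold downward (Col5a1, Col1a1 and Acta2) and 0 upward, and the sum was 7997 and 5535. Acta2, the brightest of them in revertant cells, went from a log2 signal of 11.68 to 10.38 and weighs most in the revertant sum. Tagln, with 11.59 in gene-trapped cells, weighs most in the gene-trapped sum. Of the 11, 7 had negative and 4 positive differences, the latter Tagln (0.25), Cxcl12 (0.20), Lum (0.06) and Thy1 (0.02). By the authors' values 6 of 11 passed 2-fold downward, against the same 4.02% of all genes. Dcn was above background on neither array. Their part in the values of the laminin chains, nidogen and the collagens was not tested. Of 10 endoderm markers measured 7 were detected on both arrays, Afp, Ttr and Apoa1 on neither, 0 were 2-fold apart, and the sum was 1307 and 1468. Of 5 epiblast markers measured all 5 were above background, 0 were 2-fold apart, and the sum was 417 and 442. By the authors' values 1 of 7 endoderm markers, Dab2, passed 2-fold downward, and 1 of 5 epiblast markers, Fgf5, passed it upward.

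**Figure D2:**
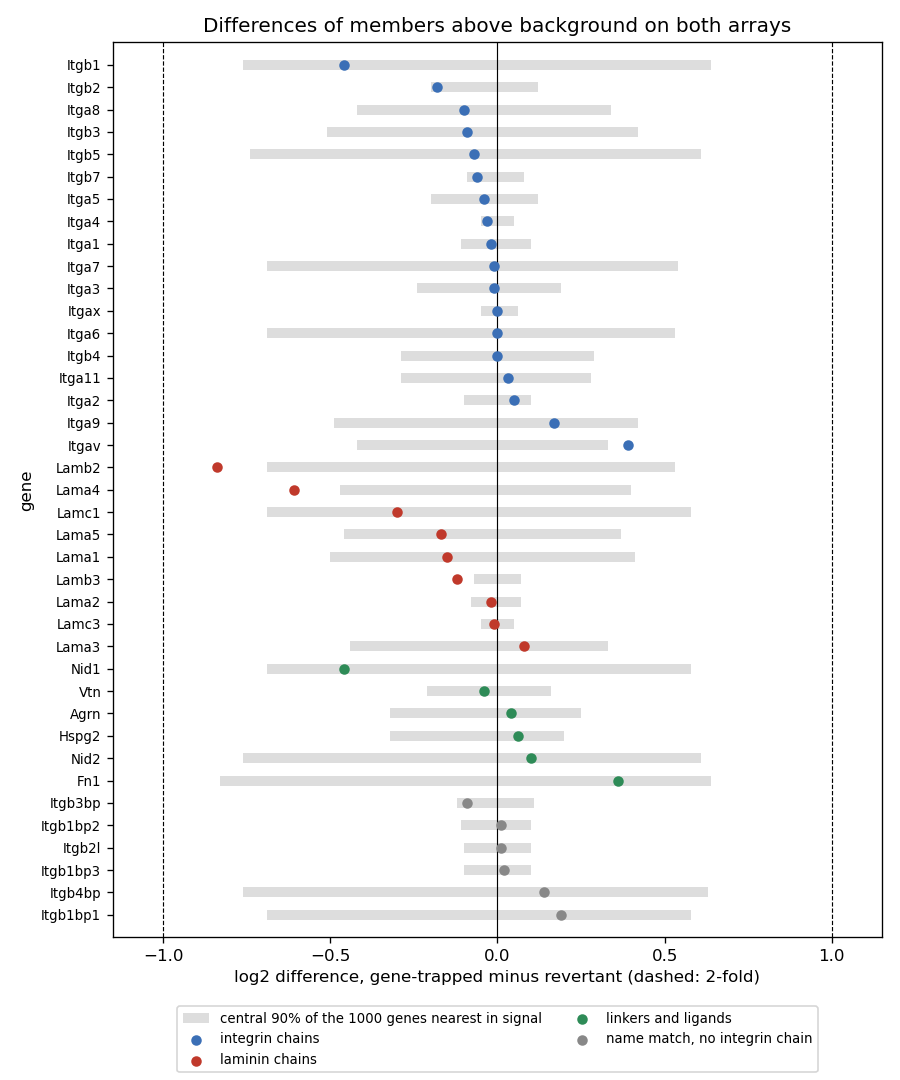
Log2 difference (gene-trapped minus revertant, horizontal axis) of the 39 members detected on both arrays, coloured by family, over grey bars that span the central 90% of the 1000 named genes nearest in mean signal. Lamb2, Lama4 and Lamb3 lie left of their bars and Itgav right of its bar, and no point reaches the dashed lines at 2-fold.

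Of the 39 members 3 fell below the central 90% of the genes nearest in signal (Lamb2, Lama4 and Lamb3) and 1 above it (Itgav). That is 10.3%, and 10% of genes lie outside by construction. All 3 on the low side were laminin chains, which were singled out after their values were seen.

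The linkers and ligands went both ways. Nid1, nidogen 1, bridges the gamma 1 chain of laminin to collagen IV. It read 322 in revertant and 178 in gene-trapped cells, and its log2 difference was -0.46 (1.37-fold lower). Among its nearest 1000 genes 10.8% had a lower difference, so Nid1 was inside the common range. The paralogue Nid2 read 474 and 417 and had 0.10. The nidogen genes therefore differed from each other by sign in the main setting, although under median scaling Nid2 had -0.03 and with the local background subtracted -0.14. Fn1 read 3649 in revertant and 3850.5 in gene-trapped cells, and its difference was 0.36 (1.28-fold higher). Among its nearest 1000 genes 81.2% had a lower difference, so the value was inside the common range. Hspg2, the perlecan gene, read 47.5 and 41.1 with 0.06, and Agrn read 52.4 and 44.7 with 0.04. Vtn, whose protein is mainly made by liver, read 42.6 and 33.1 with -0.04.

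Among integrin beta chains, Itgb1 had the lowest difference. The beta 1 chain pairs with more alpha chains than any other and is the main matrix receptor subunit of early embryonic cells. Itgb1 read 1430.1 in revertant and 867 in gene-trapped cells, and its difference was -0.46 (1.38-fold lower). Among its nearest 1000 genes 12.5% were lower. The local background that the scanner recorded at this spot was 1182.5 and 150.4, or 82.7% and 17.3% of the spot median. With that column subtracted the difference turned to 1.18, which made Itgb1 the 1 member at least 2-fold apart in that setting, where 2.04% of all genes were at least 2-fold higher. Its direction thus depended on how the local background was treated. Whether that column is a true local background is not known: over 27456 spots it followed spot brightness, with a Spearman correlation of 0.96 and 0.94 in the same order of arrays, a description with no test. Every value given here with the local background subtracted carries that doubt.

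The alpha chains that pair with beta 1 were mostly near 0 in the main setting. The 11 such genes detected ran from -0.10 (Itga8) to 0.39 (Itgav), with a median of -0.01, beside -0.46 for Itgb1. By the authors' values they ran from -0.52 (Itga4) to 0.86 (Itgav), with a median of -0.02, beside -0.36 for Itgb1, and Itga8 had -0.29, Itga5 -0.27 and Itga1 -0.18. With the local background subtracted they ran from -0.14 to 0.14, beside 1.18 for Itgb1. Of the laminin receptors, Itga6 read 169 and 133 with a difference of 0.00, Itga7 read 226 and 175 with -0.01, and Itga3 read 43.9 and 35.5 with -0.01. All 3 were thus within 0.01 of 0 in the main setting, though median scaling gave -0.14 for Itga6 and -0.17 for Itga7, while laminin chain genes had a median of -0.15. Itgb4, the partner of the alpha 6 chain in hemidesmosomes, read 56.6 and 45.8 with 0.00. Itga8, a receptor chain for nephronectin and other RGD ligands, read 75.2 and 53.4.

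Itgav had the highest difference of any member in the main setting. The alpha V chain binds RGD ligands, fibronectin and vitronectin among them, and pairs with several beta chains. It read 56.2 in revertant and 67.4 in gene-trapped cells, and its difference was 0.39 (1.31-fold higher), with 97.6% of its nearest 1000 genes lower. The beta partners of alpha V did not go with it. Itgb5 read 514 and 397 with a difference of -0.07 (0.11 with the local background subtracted), and Itgb3 read 119 and 85.2 with -0.09. Itga5, which with beta 1 forms the classical fibronectin receptor, read 38.5 and 30.3 with -0.04. In the authors' table Itgav was 1.82-fold higher.

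The remaining alpha chains gave small differences. Itga9, a receptor chain for tenascin and other ligands, read 90.7 and 82.7 with 0.17, and Itga4, which with beta 1 binds fibronectin and VCAM-1, read 26.8 and 22.4 with -0.03. Of the collagen receptors, Itga1 had -0.02, Itga2 0.05 and Itga11 0.03, while Itga10 was not above background on either array. The 3 detected collagen receptor chains had spot medians from 27.4 to 54.2 over both arrays, a range in which the offset of 50 narrows differences by construction.

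The leukocyte alpha chains were at or near background. Itgam was not above background on either array, and Itgal was so on the gene-trapped array only, at 22.7 against a limit of 22.3. Itgax read 27.0 and 23.4 with a difference of 0.00. Itgb2, the beta chain these share, was clearly above the limits at 42.0 and 27.6, with -0.18. In the authors' table it was 1.99-fold lower, from values of 12.9 and 6.46 in columns with a median of 25. Scaling to the 75th percentile gave Itgb2 0.00, where the median of all genes was 0.15. Itgb7 read 31.0 and 24.4 with -0.06, and Itgb6, an epithelial chain, was not above background on either array. Of 8 measured leukocyte markers 6 were detected on both, Ptprc and Cd48 on neither, and their summed normalized signal was 562 and 551. Itga2b, the platelet chain left out of the member list, read 73.7 and 25.4 with -0.72.

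Of the 7 other genes with integrin-like symbols 6 were detected on both arrays, and 5 of these had positive differences in the main setting. So did 7334 of the 13753 named genes detected on both arrays. Itgb1bp1 encodes a protein that binds the tail of beta 1 and restrains its activation. It read 257 and 233 with 0.19. Itgb4bp, named Eif6 in RefSeq, acts in ribosome assembly and read 1235 and 1161 with 0.14. Itgb3bp had -0.09, Itgb1bp3, named Nmrk2 in RefSeq, 0.02, Itgb1bp2 0.01 and Itgb2l 0.01, and Itgbl1 was not above background. With the local background subtracted Itgb1bp3 had -0.02, Itgb1bp2 -0.02 and Itgb2l -0.01. Without the 7 genes the median over 33 members was -0.02.

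**Figure D3:**
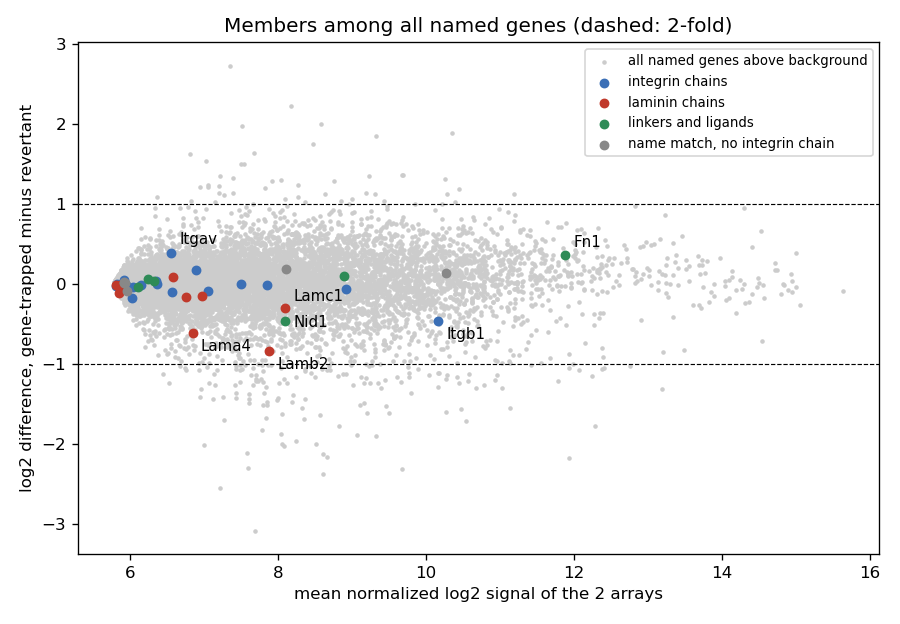
Log2 difference (vertical axis) against mean normalized log2 signal (horizontal axis) for the 13753 named genes detected on both arrays in grey and the 39 members in colour. The members lie between -0.84 and 0.39, inside the dashed lines at 2-fold that 46 genes exceed upward and 148 downward.

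Other basement membrane and matrix genes included 1 at least 2-fold lower. Of 31 listed 26 were found by symbol and 21 detected on both arrays. Their median was -0.12, and 1 gene passed 2-fold downward and 0 upward, against 1.08% and 0.334% of all named genes. By the authors' values 2 of 22 passed it downward and 1 upward, against 4.02% and 2.01% of all genes with both values. Col15a1, a collagen of vascular and muscle basement membranes, read 246 and 76.8 with -1.07 (2.10-fold lower). Egfl7, secreted by endothelium, had -0.64, Col4a2, a chain of the main basement membrane collagen, had -0.57 and Bgn 0.55. Egfl7 had 0.15 with the local background subtracted. Other matrix ligands of integrins had a median of -0.16 over 18 genes, with 1 past 2-fold downward and 0 upward. By the authors' values 4 of 19 of these ligand genes were past it downward and 0 upward. Of all genes with both values 4.02% were so downward and 2.01% upward. Cyr61, a matricellular ligand, read 1979.9 and 746 with -1.14 (2.21-fold lower), and Ctgf had -0.47, Mfge8 -0.42 and Spp1 0.37.

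Receptors other than integrins and the cytoplasmic adhesion proteins showed no gene 2-fold apart in the main setting. Of 22 laminin and matrix receptors or co-receptors above background, 0 passed 2-fold in either direction, and the median was 0.02. Sgce, a sarcoglycan gene, had -0.96 (-1.07 with median scaling and -1.16 with the local background subtracted), the tetraspanin gene Cd63 -0.81, Cd47 -0.74 and the syndecan gene Sdc1 0.46. By the authors' values Sdc1 was 2.13-fold higher and the syndecan gene Sdc4 2.04-fold lower, and with the local background subtracted the laminin-binding ribosomal protein gene Rpsa had 1.21. Dag1, the dystroglycan that anchors laminin, named here for its role, had -0.31. Of 41 genes of the integrin adhesome, the proteins that join integrins to actin, 0 passed 2-fold in either direction, and the median was -0.04. Plekhc1, the kindlin-2 gene, had -0.57, Flna -0.53, Lims2 -0.35 and Ilk -0.34, and Flna had 0.36 and Crk 1.37 with the local background subtracted. By the authors' values Lims2 was 2.55-fold lower. In the main setting these lists had 0 genes past 2-fold, where 1.08% of all genes were lower and 0.334% higher.

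**Figure D4:**
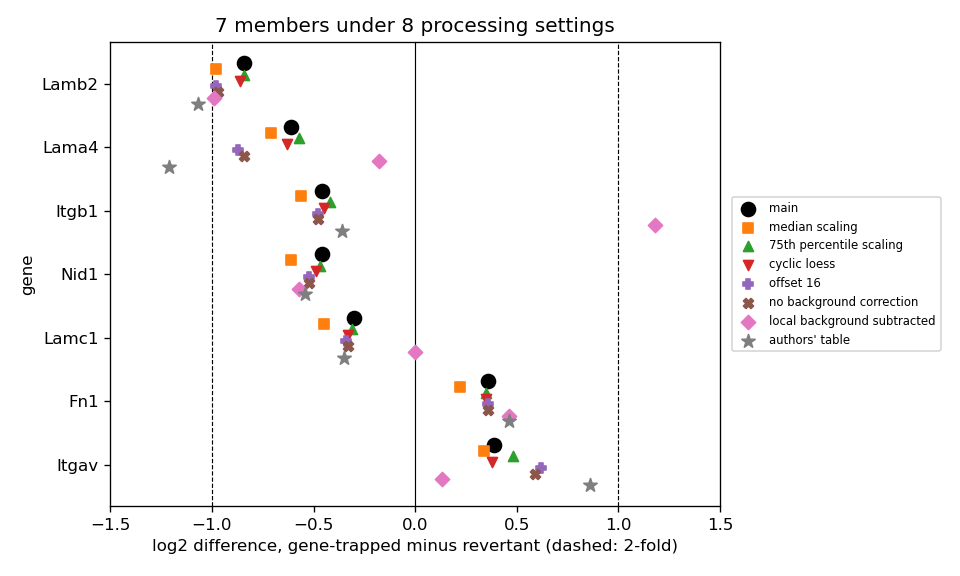
Log2 difference (horizontal axis) of 7 members under 8 processing settings, 1 symbol per setting. Lamb2, Lama4 and Nid1 stay left of 0 and Itgav right of 0 in all 8, and Fn1 stays right of 0 in the settings that leave it a signal, whereas Itgb1 moves to 1.18 and Lamc1 to 0.00 with the local background subtracted.

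Of the 10 alternatives 7 can move a single gene's value, and 14 of the 39 detected members kept their sign in all 7, or 23 in the 6 without local background subtraction. Among the members plotted, Lamb2 ran from -1.07 to -0.84, Lama4 from -1.21 to -0.18 and Nid1 from -0.61 to -0.46. Itgav ran from 0.13 to 0.86. Lama4 was nearest to 0 with the local background subtracted and lowest in the authors' table. Itgb1 ran from -0.56 to 1.18 and Lamc1 from -0.45 to 0.00. Fn1 ran from 0.22 to 0.46, but its local background was 123% and 100% of the spot median, so its value with that column subtracted has no signal behind it.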

How the data were processed

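Total RNA was amplified as amino allyl RNA, coupled to Cy5 and hybridised to TORAY arrays, per the labels' protocols. The authors deposited spot medians as linear intensity, joined over 3 scanner gains by least squares per the file headers, with a local background column. Their processed table also holds linear intensity. Scanner and software: not given in the sources used here. Intensities were corrected with normexp (offset 50, no local background subtracted), quantile-normalized and put on the log2 scale with limma 3.58.1 in R 4.3.3. Tables were made with Python 3.11.15 and pandas 2.3.3, and normalization was tested on simulated data. Control spots and 2 flagged probes were left out. Where a gene had several probes, the brightest by mean spot median was used.

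Gene names came from the platform annotation. All 44 member symbols match a symbol or synonym in the RefSeq table of GRCm38.p6, 42 as current symbols. Members are named by the symbol rule, and of each linked list the 4 largest absolute differences, plus any gene 2-fold apart and a few described by role. Members and lists were chosen with earlier results of these data known. Promoter sequences are RefSeq's. The alternatives were median and 75th percentile scaling, no filter, cyclic loess, subtraction of the local background, no background correction at all, offset 16, a filter at 5 SD, the mean of probes and the authors' table.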

Additional observations from a re-analysis of the deposited data

Results flagged for a closer look

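Members' spots had more local background than blank spots, in a scanner column that enters none of the main values. The median over the 44 members was 23.8 in the revertant file and 22.9 in the gene-trapped file, where blank spots had 14.2 and 15.6. Members were compared with blank spots only and not with other probes. Over all 27456 spots the column followed spot brightness (Spearman correlation 0.96 and 0.94), so the excess is not shown to be particular to members. At Fn1 the local background was 123% and 100% of the spot median and at Lamb2 21.4% and 22.5%. At Itgb1, which differed most between the arrays among 7 members compared, it was 82.7% and 17.3%.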

How the results depend on the processing

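No paired analysis was possible because there is 1 array a group. Members at least 2-fold higher numbered 1 (Itgb1) with the local background subtracted, against 0 in the main setting, and members at least 2-fold lower numbered 3 in the authors' table, against 0. The members' median was 0.14 under 75th percentile scaling, which moved the median of all genes to 0.15. The remaining settings left both counts at 0, and apart from 75th percentile scaling the median ran from -0.09 (the authors' table) to 0.00. The mean of probes equals the main setting for members, which have 1 probe each. Over all named genes, higher genes numbered 46 in the main setting, 280 when the local background was taken off, 285 in the authors' table, 87 with offset 16 and 84 without any correction. Lower genes numbered 148 in the main setting and 571 in the authors' table, 238 with offset 16 and 227 without any correction. A smaller offset widens folds of dim genes by construction, and apart from that the cause was not tested. Signal near background limits the dim members: 6 of the 39 fell away at 5 SD above the blank mean.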

Other observations

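Proteases that cut matrix and their inhibitors were listed as a further group. Of 24 detected on both arrays 0 passed 2-fold in either direction, where 0.334% of all named genes did so upward and 1.08% downward, and the median was -0.02. Reck, a membrane-bound inhibitor of matrix metalloproteinases, read 154 in revertant and 53.3 in gene-trapped cells, and its difference was -0.87 on the log2 scale. The inhibitor gene Timp3 read 141 and 72.2 with -0.45, whereas Timp1 read 61.7 and 83.7 with 0.55. The protease gene Mmp11 read 149 and 66.0 with -0.61. By the authors' values, 3 of 25 genes of the list passed 2-fold downward and 1 upward, where 4.02% of all genes with both values did so downward and 2.01% upward.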
